A study of Mus musculus with 15 samples.

Results

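The 9 genes described here, Slc17a7, Tbr1, Neurod2, Neurod6, Emx1, Slc30a3, Fezf2, Cux2 and Lamp5, are commonly used to mark excitatory neurons of the cerebral cortex. They were followed in bulk RNA of the mouse striatum. They were chosen by symbol, and all 9 were found among the 45777 features of the deposited tables. The study asked whether methamphetamine (METH, a psychostimulant) given to a sire leaves a trace in the striatum of sons and grandsons. Wild-type male ICR mice, an outbred stock, received METH at 5 mg/kg or saline at 10 mL/kg under the skin on 21 days in a row from 6 weeks of age and were then mated with untreated females. Striatum was taken at 7 weeks from their sons (F1) and from the sons of F1 males and untreated females (F2), none of which is labelled as having received the drug directly. There were 4 F1 saline, 3 F1 METH, 4 F2 saline and 4 F2 METH libraries, each from a male. The labels do not say which sons shared a sire or a litter, so p-values measure the spread between these libraries.

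Excitatory neurons of the cortex and inhibitory spiny projection neurons of the striatum arise from different parts of the embryonic forebrain. The cortical lineage is marked by transcription factors such as Emx1, Tbr1 and members of the Neurod family. Its neurons load glutamate into vesicles through the transporter that Slc17a7 encodes (VGLUT1). The striatum has almost no excitatory cell bodies of its own, while cortical axons end in it and cortex and white matter lie directly over it. In bulk tissue, fewer cells of a type and less RNA per cell cannot be told apart.

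The promoter sequence of Slc17a7 and Neurod6, a pair that varied widely between animals, and of Lamp5, which did not, is shown to place them in the genome. All are the 250 bases before a RefSeq start on GRCm38.p6, the same build as mm10, and hold no annotated exon. Slc17a7 lies at chr7:45163921-45176139 with its window at chr7:45163671-45163920 on the plus strand. Neurod6 lies at chr6:55677818-55681263 with its window at chr6:55681264-55681513 on the minus strand. Lamp5 lies at chr2:136052025-136069917 with the window of its downstream start at chr2:136057498-136057747 on the plus strand. Capitals mark the E-box CANNTG, the core bound by basic helix-loop-helix factors such as the Neurod proteins.
Slc17a7: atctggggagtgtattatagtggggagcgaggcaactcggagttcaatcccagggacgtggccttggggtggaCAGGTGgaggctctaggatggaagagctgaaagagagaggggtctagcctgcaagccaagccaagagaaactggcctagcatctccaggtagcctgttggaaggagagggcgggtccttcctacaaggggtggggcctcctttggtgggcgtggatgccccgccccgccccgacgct
Neurod6: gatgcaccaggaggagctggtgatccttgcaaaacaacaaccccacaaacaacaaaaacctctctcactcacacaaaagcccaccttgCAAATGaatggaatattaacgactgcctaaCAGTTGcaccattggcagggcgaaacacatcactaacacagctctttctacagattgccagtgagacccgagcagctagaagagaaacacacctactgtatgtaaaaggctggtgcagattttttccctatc
Lamp5: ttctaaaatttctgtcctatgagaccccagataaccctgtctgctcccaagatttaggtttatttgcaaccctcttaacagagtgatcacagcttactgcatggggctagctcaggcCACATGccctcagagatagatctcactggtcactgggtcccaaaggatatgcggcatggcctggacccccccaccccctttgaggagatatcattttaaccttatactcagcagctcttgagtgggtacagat
The windows held 1, 2 and 1 E-boxes, and 66.2% of the 32851 mouse promoter windows, cut to the same 250 bases, held at least 1, with a mean of 1.16. E-boxes were counted on both strands, which read the same for this motif. The narrower E-box CAGATG, the T-box core TCACACC and the homeobox core TAATTA, searched on both strands, were absent from these 3 windows and present in 14.4%, 3.33% and 4.84% of all windows. A match is a description of letters and not of binding.

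The other members lie at chr2:61802863-61814114 (Tbr1), chr11:98325415-98329645 (Neurod2), chr6:85187931-85204463 (Emx1), chr5:31086106-31108244 (Slc30a3), chr14:12338992-12346803 (Fezf2) and chr5:121857962-122050415 (Cux2). Only Slc17a7 and Cux2 overlap other annotated genes, the microRNA Mir7055 and the predicted noncoding RNA Gm52785, each with 0 to 3 reads in any library. Libraries held 31563806 to 50573906 counted reads. Levels are given as the authors' TPM, a value per transcript length that allows genes to be compared, and tests used the counts.

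Slc17a7 differed up to 59.5-fold between animals of the same group. Its TPM was 267, 81.9, 451.8 and 7.60 in F1 saline replicates 1 to 4, and 24.1, 19.4 and 323.6 in F1 METH replicates 1 to 3. It was 9.25, 8.78, 49.7 and 172.7 in F2 saline replicates 1 to 4, and 9.55, 117.4, 71.3 and 61.3 in F2 METH replicates 1 to 4. Every group held at least 1 library at or under 24.1 TPM and at least 1 above 100 TPM, and all 4 groups overlapped. By group mean the order was F1 saline (202.1 ± 199.1 TPM, SD, n = 4), F1 METH (122.4 ± 174.3, n = 3), F2 METH (64.9 ± 44.3, n = 4) and F2 saline (60.1 ± 77.5, n = 4), and no neighbours in this order differed beyond their spread. F1 and F2 levels come from separate tables, so a difference between generations cannot be told apart from one between tables. The highest library, F1 saline replicate 3, had 59.5 times the TPM of the lowest, F1 saline replicate 4.

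**Figure D1:**
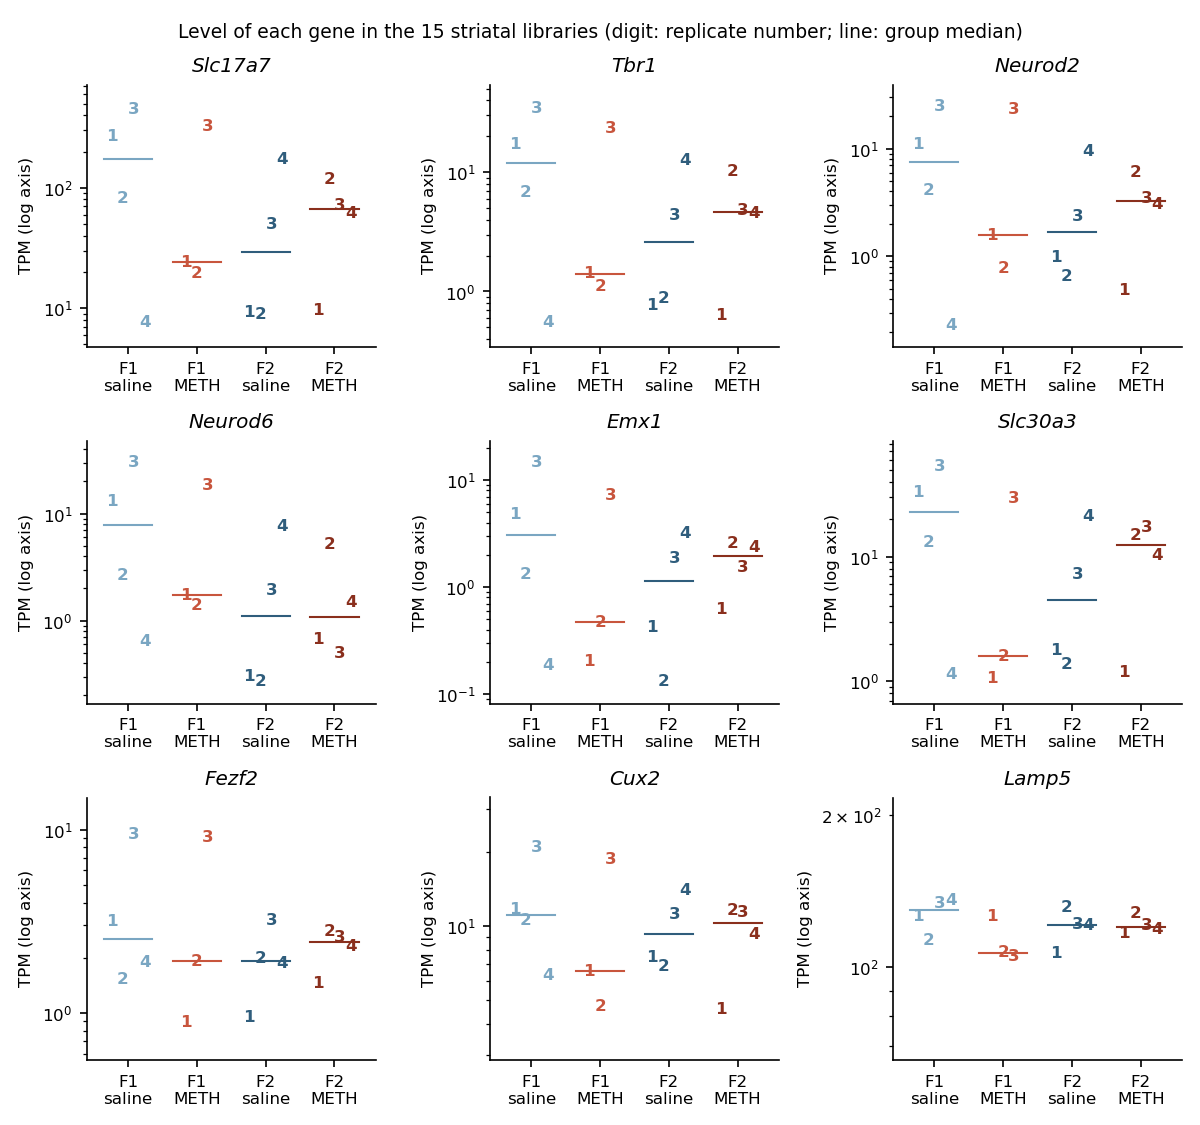
TPM of each of the 9 genes on a log axis in the 15 libraries, by group; each digit is 1 library and gives its replicate number, and lines are group medians. Slc17a7 ran from 7.60 to 451.8 TPM and Tbr1, Neurod2, Neurod6, Emx1, Slc30a3 and Cux2 followed the same libraries up and down, while Lamp5 stayed between 104.9 and 135.6 TPM.

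Slc30a3, which encodes the transporter that loads zinc into glutamatergic vesicles (ZnT3), followed the same libraries. Its TPM was 32.8, 13.0, 53.0 and 1.13 in F1 saline, 1.06, 1.595 and 29.3 in F1 METH, 1.78, 1.36, 7.22 and 21.2 in F2 saline, and 1.18, 14.7, 17.1 and 10.2 in F2 METH, in replicate order. It lay between 1.06 and 1.78 TPM in the 6 libraries with the lowest Slc17a7 and between 7.22 and 53.0 TPM in the other 9.

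Tbr1, a T-box factor of early-born and deep-layer cortical neurons, kept the most constant proportion to Slc17a7. Its TPM was 17.1, 6.82, 33.9 and 0.548 in F1 saline, 1.41, 1.09 and 23.4 in F1 METH, 0.767, 0.866, 4.32 and 12.6 in F2 saline, and 0.634, 10.0, 4.74 and 4.54 in F2 METH. The highest library had 61.9 times the lowest. As a percent of Slc17a7 TPM, however, Tbr1 stayed between 5.63% and 9.86% in all 15 libraries, with a median of 7.32%.

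Neurod2 and Neurod6, basic helix-loop-helix factors of differentiating and mature excitatory neurons, spanned still wider ranges. Neurod2 was 10.9, 4.06, 24.6 and 0.231 TPM in F1 saline, 1.58, 0.778 and 23.3 in F1 METH, 0.967, 0.645, 2.36 and 9.47 in F2 saline, and 0.477, 6.05, 3.47 and 3.06 in F2 METH. Neurod6 was 12.9, 2.64, 29.8 and 0.644 TPM in F1 saline, 1.74, 1.39 and 18.4 in F1 METH, 0.302, 0.269, 1.92 and 7.64 in F2 saline, and 0.660, 5.17, 0.497 and 1.49 in F2 METH. Neurod2 amounted to 3.03% to 10.5% of Slc17a7 TPM. Neurod6 amounted to 2.43% to 8.47% in 14 libraries and to 0.698% in F2 METH replicate 3, where 13 reads were counted although Slc17a7 stood at 71.3 TPM.

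Emx1, a homeobox factor of dorsal forebrain progenitors that stays on in cortical excitatory neurons, was the least abundant. Its TPM was 4.79, 1.31, 14.4 and 0.184 in F1 saline, 0.201, 0.471 and 7.19 in F1 METH, 0.419, 0.131, 1.84 and 3.13 in F2 saline, and 0.615, 2.54, 1.53 and 2.36 in F2 METH. The lowest libraries rested on few reads, with 2 in F2 saline replicate 2 against 255 in F1 saline replicate 3. As a share of all reads these 2 libraries differed 120.8-fold, with a 95% exact interval of 33.1 to 1003 that covers counting error only.

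Fezf2 and Cux2 had narrower ranges. Fezf2, a zinc-finger factor that specifies deep-layer neurons projecting below the cortex, was 3.16, 1.53, 9.34 and 1.89 TPM in F1 saline, 0.887, 1.91 and 9.002 in F1 METH, 0.947, 1.97, 3.21 and 1.86 in F2 saline, and 1.46, 2.77, 2.59 and 2.30 in F2 METH. In TPM, F1 saline replicate 3 and F1 METH replicate 3 stood above the other 13, which reached at most 3.21 TPM. Those 13 did not follow the order of Slc17a7 throughout: F2 saline replicate 4 had less Fezf2 than F2 saline replicate 2. In counted reads, F1 saline replicate 1 stood out as well. It had 184 Fezf2 reads of 36502617, against 143 of 50573906 in F2 saline replicate 3, the library at 3.21 TPM. Cux2, a homeobox factor of upper-layer neurons that interneurons also express, was 11.7, 10.5, 20.9 and 6.29 TPM in F1 saline, 6.56, 4.70 and 18.7 in F1 METH, 7.44, 6.86, 11.2 and 13.9 in F2 saline, and 4.56, 11.6, 11.3 and 9.29 in F2 METH. Its highest library had 4.58 times the lowest.

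Lamp5 went against the label. It encodes a lysosome-associated membrane protein that marks cortical neurons and also a class of inhibitory neurons. Its TPM was 126.0, 113.0, 133.7 and 135.6 in F1 saline, 125.9, 106.8 and 104.9 in F1 METH, 106.5, 131.2, 121.7 and 121.3 in F2 saline, and 116.6, 128.0, 121.2 and 118.8 in F2 METH. Its highest library, F1 saline replicate 4, was the one with the lowest Slc17a7, and the ratio of Lamp5 to Slc17a7 TPM ran from 29.6% to 1786%. Its r with Slc17a7 within groups was -0.33 (rho = -0.23, exact permutation p = 0.331, adjusted p = 0.361).

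Measured as the SD of log2 CPM (TMM-scaled counts as a share of the library) around the group means, Slc17a7, Tbr1, Neurod2, Neurod6, Emx1 and Slc30a3 varied by 1.84 to 2.14, against a median of 0.17 over the 15223 genes with a mean of at least 1 CPM that were tested in both generations. Between 0.24% and 0.37% of those genes varied more. The SD was 0.85 for Fezf2 and 0.70 for Cux2, with 1.69% and 2.67% of genes more variable, and 0.13 for Lamp5, with 65.5% more variable.

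These 6 wide-ranging genes varied together within groups. For each of the 36 pairs, deviations of log2 CPM from the group mean were correlated over the 15 libraries and tested by a two-sided exact permutation of libraries within groups, with Benjamini-Hochberg adjustment over the 36 pairs. All 15 pairs among the 6 passed at adjusted p under 0.05, with Pearson r from 0.87 to 0.995. The closest pair was Slc17a7 and Tbr1 (r = 0.995, Spearman rho = 0.98, exact permutation p = 6.03e-05, adjusted p = 3.62e-04), and r was 0.99 without the 2 libraries farthest from the Slc17a7 median. The loosest was Neurod6 and Slc30a3 (r = 0.87, rho = 0.82, exact permutation p = 7.72e-04, adjusted p = 0.00139). Per doubling of Slc17a7, Tbr1 changed by 0.92, Neurod2 by 0.99, Neurod6 by 0.87, Emx1 by 0.82 and Slc30a3 by 0.97 on the log2 scale, that is nearly in proportion.

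Of the 13 pairs with Fezf2 or Cux2 but without Lamp5, 12 passed, with r from 0.66 to 0.93. Cux2 correlated with Slc17a7 at r = 0.92 (rho = 0.94, exact permutation p = 1.21e-05, the smallest the 82944 arrangements can give, adjusted p = 1.45e-04) but changed by only 0.30 per doubling of it. Fezf2 correlated with Slc17a7 at r = 0.66 (rho = 0.66, exact permutation p = 0.0353, adjusted p = 0.0481) with a slope of 0.26. This call was lost within each generation, with r = 0.79 and a slope of 0.40 in F1 (exact permutation p = 0.0764, adjusted p = 0.102) and r = 0.47 and a slope of 0.056 in F2 (exact permutation p = 0.325, adjusted p = 0.464). The correlation between Fezf2 and Cux2 (r = 0.73, adjusted permutation p = 0.0337) dropped to 0.22 without the 2 farthest libraries and rests on them. None of the 8 pairs with Lamp5 passed, with r from -0.43 to -0.035.

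**Figure D2:**
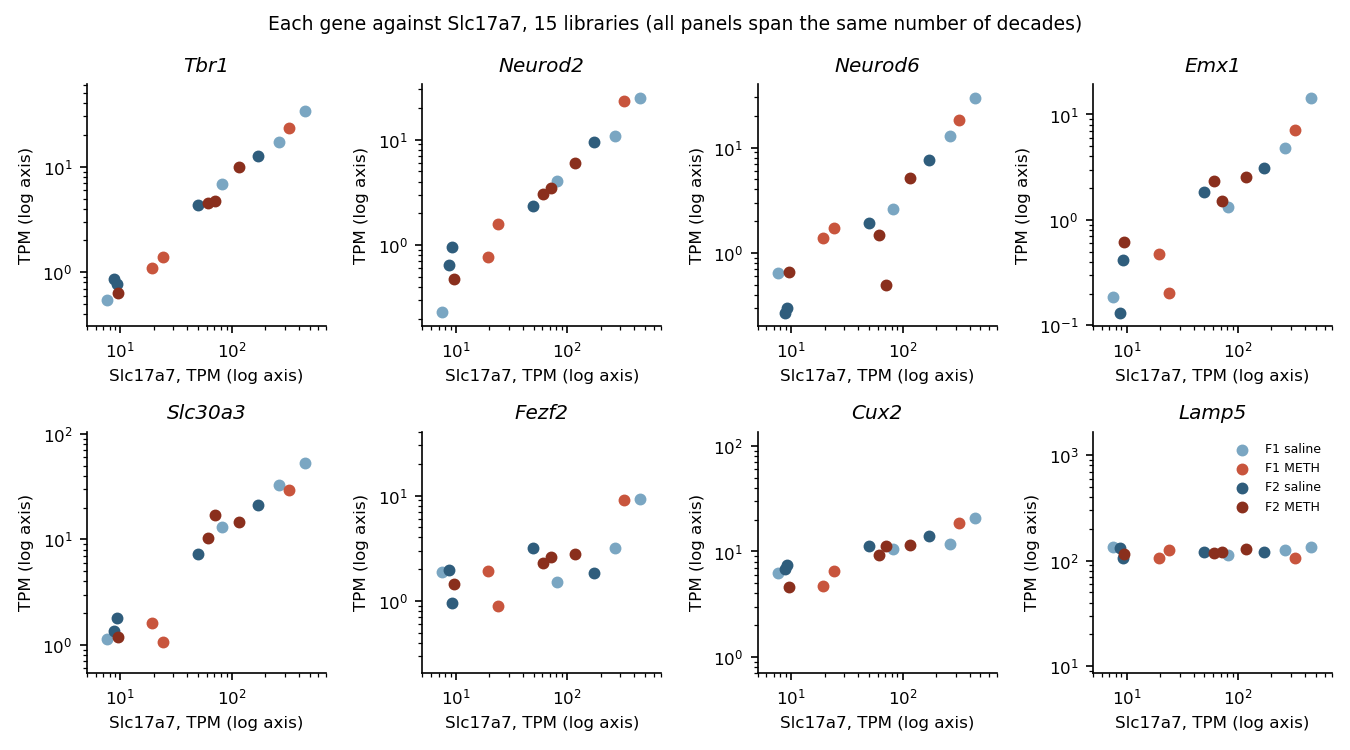
TPM of the other 8 genes against Slc17a7 TPM, both on log axes, 1 point per library, coloured by group; all panels span the same number of decades. Tbr1 lies nearest to a line of constant proportion (5.63% to 9.86% of Slc17a7) and Cux2 rises less steeply. The TPM of Fezf2 stands high in only 2 libraries, and Lamp5 is flat.

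**Figure D3:**
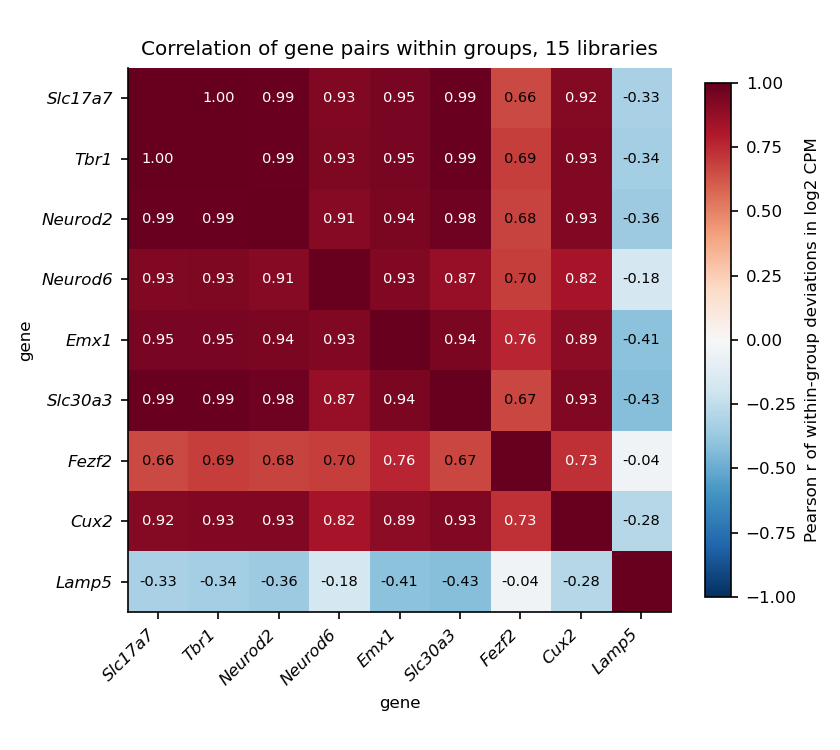
Pearson r of each pair of the 9 genes over 15 libraries, computed on deviations of log2 CPM from the group mean. Values among the first 6 genes run from 0.87 to 1.00, those with Fezf2 or Cux2 from 0.66 to 0.93, and those with Lamp5 from -0.43 to -0.035.

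By generation, 23 of 36 pairs passed within F1 (7 libraries), including all 15 among the 6 genes, and 15 passed within F2 (8 libraries), including 10 of those 15. The 15 r values were 0.96 to 1.00 in F1 and 0.74 to 1.00 in F2. The 5 libraries with Slc17a7 above 100 TPM were replicates 1 and 3 of F1 saline, replicate 3 of F1 METH, and in F2 replicate 2 of METH and replicate 4 of saline. Without them 0 of 36 pairs passed the permutation test, in which the remaining 10 libraries allow 144 arrangements and no p below 0.00694. The r values among the 6 genes were then 0.65 to 0.995.

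Other genes of the same neurons moved with them only in part. Of 28 other genes listed for cortical excitatory neurons, 27 were in the tables and 26 were abundant enough to compare with the mean log2 CPM of the 9 genes. Of those, 10 passed upward and 0 downward in the permutation test, adjusted over the 113 list genes examined. The median r was 0.36, against -0.062 over all 15223 genes. Among the 10, Nrn1, a membrane-anchored neurotrophic protein, ran from 2.05 to 98.7 TPM (r = 0.98, adjusted permutation p = 0.00204), and Rtn4rl2, a Nogo receptor relative, from 0.116 to 29.1 TPM (r = 0.97, adjusted permutation p = 0.00119). Cplx3, a complexin of subplate neurons (r = 0.96), Nptx1, a neuronal pentraxin (r = 0.98), Bhlhe22 (r = 0.88), Rasgrf2 (r = 0.84), Ntsr1, a marker of layer 6 (r = 0.84), Mef2c (r = 0.82) and Ccn2 (r = 0.81) also passed. The most abundant genes of that list, Nrgn and Itpka, which spiny neurons also express, did not pass (r = -0.20 and -0.44).

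By cortical layer, 1 of 6 upper-layer genes (Rasgrf2) and 3 of 8 deep-layer genes (Ntsr1, Ccn2 and Cplx3) passed upward. The most abundant ones did not pass, with r = 0.34 for Otof and -0.023 for Cux1 among upper-layer genes, and -0.46 for Tle4 and -0.62 for Syt6 among deep-layer genes. Of 15 family relatives of the members, 9 were abundant enough to compare. Among these, only Slc17a6 passed (r = 0.80, adjusted permutation p = 0.031). It encodes VGLUT2, the glutamate transporter of thalamic and other subcortical neurons. Its r was 0.51 without the 2 farthest libraries. Neurod1, too scarce for the comparison at 0 to 3.08 TPM, had r = 0.92 (rho = 0.88) and was left out of the adjustment. The abundant relatives Lamp1 and Lamp2 stood at r = -0.061 and -0.019.

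Genes of neighbouring structures were examined the same way. Of 6 claustrum and piriform genes, 3 passed upward: Nr4a2 (0.332 to 30.2 TPM, r = 0.93), Ntng2 (4.59 to 41.5 TPM, r = 0.96) and Smim32 (4.92 to 15.5 TPM, r = 0.90). The more abundant Synpr and Lxn did not (r = -0.038 and 0.46). Of 4 hippocampal genes, C1ql3 passed (1.63 to 38.9 TPM, r = 0.97) and Wfs1 did not (r = -0.21). Of 7 thalamic genes Slc17a6 passed, and the most abundant, Rora and Prkcd, did not (r = -0.067 and 0.14). Of 12 interneuron genes, Cck (13.4 to 444.6 TPM, r = 0.96), a peptide that cortical excitatory cells also make, and Vip (0.159 to 19.8 TPM, r = 0.98) passed upward, while Sst and Gad1 did not (r = 0.51 and -0.66).

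Genes of spiny projection neurons, the main cell type of the striatum, moved the opposite way. All 18 had negative r with the mean of the 9 genes, with a median of -0.78, and 12 passed the permutation test downward. Over all 15223 genes, 44.9% had r above 0 and the median was -0.062. Ppp1r1b, which encodes DARPP-32, was 2238, 2181, 1691 and 2637 TPM in F1 saline, 2776, 2829 and 1980 in F1 METH, 2516, 3149, 2423 and 2367 in F2 saline, and 2698, 2857, 2776 and 2515 in F2 METH (r = -0.84, adjusted permutation p = 0.0153). Penk, the enkephalin precursor, did not pass (r = -0.66, adjusted permutation p = 0.142). F1 saline replicate 3, the highest library for 8 of the 9 members, was the lowest of all 15 for 16 of the 18 genes. The summed TPM of the 18 was 8276 to 12781 in F1 saline, 9806 to 13487 in F1 METH, 11790 to 14413 in F2 saline and 12935 to 13454 in F2 METH, and the lowest level of any of them in any library was 15.4 TPM (Ido1). TPM and CPM are shares of a library, so the levels of different gene sets are not independent of each other. None of the 9 genes exceeded 451.8 TPM in any library. How far shares enter the opposite movement was not tested. The part of tissue composition in the variation of the 9 genes was not tested.

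No list of glial or vascular genes moved with the 9 genes past the threshold. This held for 0 of 9 oligodendrocyte (Mbp, r = -0.098), 0 of 7 astrocyte (Slc1a2, r = 0.46; Slc1a3, r = 0.50), 0 of 7 microglia (C1qa, r = -0.056), 0 of 6 endothelial (Cldn5, r = -0.61; Ly6c1, r = -0.46) and 0 of 3 choroid plexus genes (Ttr, r = -0.27; Clic6, r = -0.66).

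**Figure D4:**
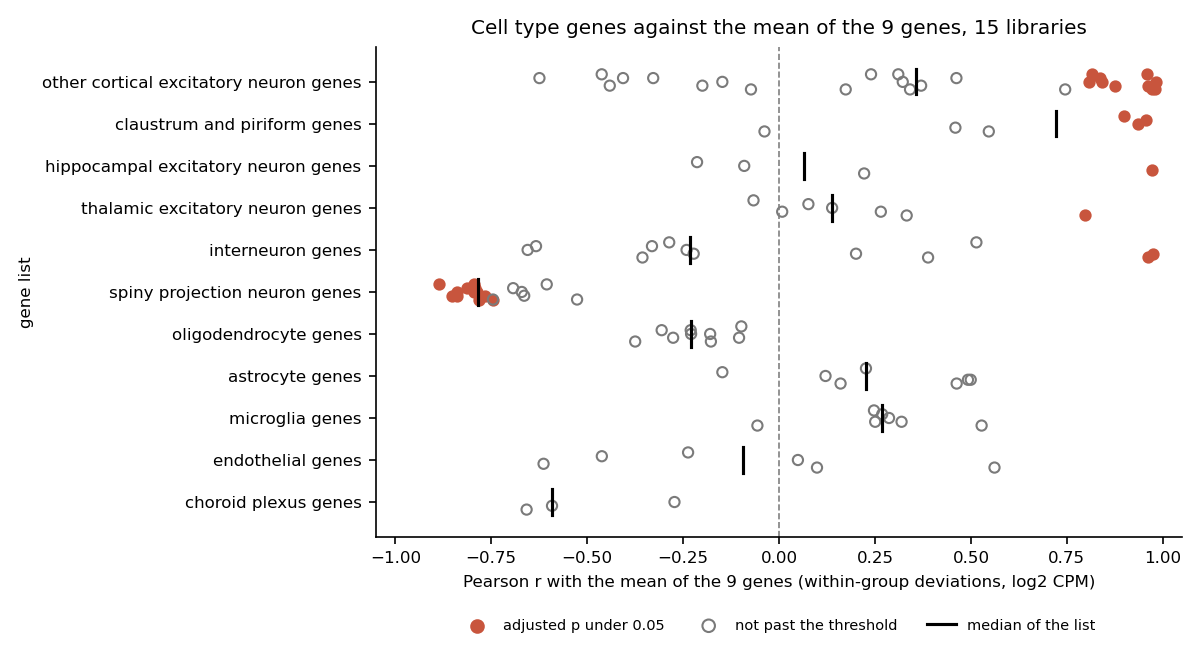
Pearson r of each listed gene with the mean log2 CPM of the 9 genes over 15 libraries (within-group deviations), by cell type list; filled points passed at adjusted permutation p under 0.05 and bars are list medians. The 18 spiny projection neuron genes lie between -0.89 and -0.53, and the cortical excitatory list spreads from -0.62 to 0.98.

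Across the transcriptome, 154 of the other genes (1.01% of the 15223) had r above 0.9 with the mean of the 9 genes and 10 had r below -0.9. These were ranked by r, so no test is given. The 10 most alike were Rtn4r, the Nogo receptor (r = 0.99, 2.37 to 44.7 TPM), Wnt9a (r = 0.98, 0.317 to 7.11 TPM), Olfm1 (r = 0.98, 95.2 to 503.2 TPM), Sidt1 (r = 0.98, 0.854 to 17.0 TPM), Nrn1 (r = 0.98), Necab3 (r = 0.98, 3.801 to 34.6 TPM), Bmp3 (r = 0.98, 0.108 to 4.33 TPM), Ptpru (r = 0.98, 4.44 to 18.0 TPM), Nptx1 (r = 0.98, 16.2 to 70.6 TPM) and Kcnj6, a potassium channel subunit (r = 0.98, 0.259 to 6.80 TPM). All 10 had their highest TPM in F1 saline replicate 3. The 5 most opposed, with a predicted gene and a pseudogene passed over by the naming rule, were Iba57 (r = -0.94), Acy1 (r = -0.94), Kcnip2 (r = -0.93, 294.5 to 443.9 TPM), Dlx6, a homeobox factor of the ventral forebrain (r = -0.92, 43.1 to 82.0 TPM), and Ramp1 (r = -0.91).

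The METH lineage was then compared with the saline lineage within each generation. In F1, all 9 genes were tested among 18499 and 0 passed at an adjusted p under 0.05 in edgeR's quasi-likelihood test, where 0% of all genes passed. An unadjusted p under 0.05 was reached by 0 of the 9, beside 774 genes or 4.18% of all. The groups overlapped for all 9 genes, whereas 5.92% of tested genes had groups that did not overlap in CPM. The log2 fold change of Slc17a7 was -0.67 (SE 1.25, 95% interval -3.50 to 2.17, edgeR adjusted p = 0.994).

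For the other transporter, Slc30a3, the F1 log2 fold change was -1.18 (SE 1.26). It was -0.70 (SE 1.20) for Tbr1, -0.24 (SE 1.29) for Neurod2, -0.62 (SE 1.20) for Neurod6 and -0.92 (SE 1.30) for Emx1. Fezf2 stood at -0.13 (SE 0.75), Cux2 at -0.28 (SE 0.51) and Lamp5 at -0.13 (SE 0.11, 95% interval -0.38 to 0.12). All 9 values were below 0, with a median of -0.62 against -0.0035 over all tested genes, of which 50.9% were below 0. Since most of these genes vary together, these are not 9 separate observations. Without F1 saline replicate 3, 2 of 9 values were below 0 and the median was 0.12. The median was -0.19 without F1 METH replicate 1, -0.14 without METH replicate 2 and -1.02 without saline replicate 4. Without F1 METH replicate 3, it was -3.01 and 5 of the 9 genes had an unadjusted p under 0.05, beside 787 of 18914 genes or 4.16%, with 0 past the adjusted threshold.

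In F2, all 9 genes were tested among 18093, and 0 passed the adjusted threshold in edgeR, as did 0% of all genes. An unadjusted p under 0.05 was again reached by 0 of the 9, beside 863 genes or 4.77% of all. The groups overlapped for all 9, while 2.55% of tested genes had groups that did not. The log2 fold change was 0.14 for Slc17a7 (SE 0.87, 95% interval -1.79 to 2.06, edgeR adjusted p = 0.996), 0.46 for Slc30a3 (SE 0.81), 0.051 for Tbr1 (SE 0.78), 0.062 for Neurod2 (SE 0.79), -0.29 for Neurod6 (SE 0.95) and 0.35 for Emx1 (SE 0.69). It was -0.032 for Fezf2 (SE 0.18), -0.089 for Cux2 (SE 0.29) and 0.0022 for Lamp5 (SE 0.069, 95% interval -0.15 to 0.15). The median was 0.051, and 3 of 9 values were below 0. The direction turned with single libraries: the median was -0.19 (7 of 9 below 0) without saline replicate 1, -0.22 (6 of 9) without saline replicate 2 and -0.22 (7 of 9) without METH replicate 2. It was 1.14 without saline replicate 4 and 0.40 without METH replicate 1.

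**Figure D5:**
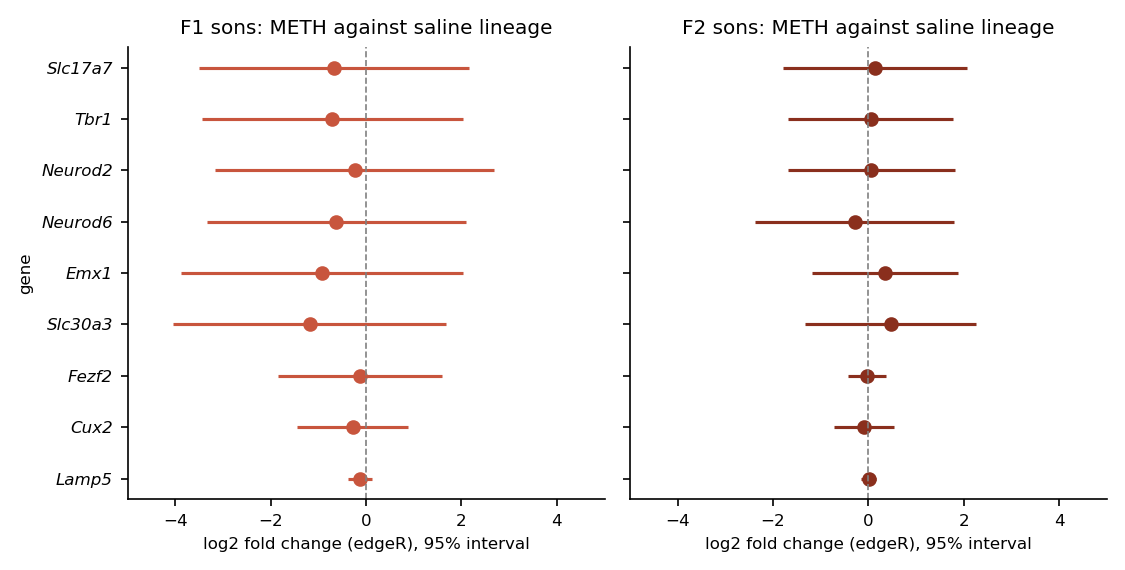
edgeR log2 fold change of METH against saline lineage for the 9 genes in F1 and F2, with 95% intervals. Every interval includes 0; those of the 6 wide-ranging genes span several log2 units, while that of Lamp5 in F2 spans -0.15 to 0.15.

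The METH effect in F2 minus that in F1 was tested as an interaction over all 15 libraries. None of the 9 genes passed in edgeR's test, beside 1 of 19308 genes (0.00518%), Aox4, an aldehyde oxidase named after its value was seen (log2 difference 7.61, edgeR adjusted p = 0.0317). An unadjusted p under 0.05 was reached by 0 of the 9 and by 943 genes or 4.88% of all. The difference was 0.80 for Slc17a7 (SE 1.68, 95% interval -2.77 to 4.37) and largest for Slc30a3 (1.64, SE 1.63, unadjusted p 0.332). Without F1 saline replicate 3 the median over the 9 genes was -0.073 and 5 values were below 0, against a median of 0.34 and 0 values below 0 with all libraries. These intervals leave room for large differences in either direction, and for Lamp5 the interval was -0.16 to 0.40.

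The remaining genes of the lists gave no call either. Of the 27 other cortical excitatory genes tested, 0 passed in F1 and 0 in F2 in edgeR's test, with median log2 fold changes of -0.044 and 0.027, and 1 gene in each generation (Ntsr1 in F1, Whrn in F2) had an unadjusted p under 0.05. Of the 18 spiny projection neuron genes, 0 passed in either, with medians of 0.14 in F1 and 0.059 in F2. In F1, 4 of 6 endothelial, 3 of 9 oligodendrocyte and 2 of 7 astrocyte genes had an unadjusted edgeR p under 0.05. In F2, 3 of 7 astrocyte and 2 of 7 microglia genes did. The shares over all genes were 4.18% in F1 and 4.77% in F2, and no other list held more than 1 such gene.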

How the data were processed

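Groups and replicate numbers were taken from sample titles. The submitters' processing notes name build mm10 with StringTie 2.1.3b, HISAT2 2.1.0, bcl2fastq 2.20.0 and Trimmomatic. How reads were counted was not given in the sources used here, nor was strandedness. Deposited counts are whole numbers per gene and were tested as such. Per the file headers, the authors also gave FPKM and TPM for each gene. Without strand, reads of overlapping genes cannot be told apart. The members and gene lists were chosen with earlier results of these data known, as were the tests.

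Counts were tested with edgeR 4.0.16 in R 4.3.3 (TMM, filterByExpr with a minimum count of 10, quasi-likelihood test, Benjamini-Hochberg over all genes, adjusted p under 0.05), on each generation's libraries, with the interaction fitted over all 15. The generations came in separate tables, so their levels were not tested against each other; only the METH effects were. Covariation used log2 CPM (TMM, prior count 2) and exact permutations within groups. Alternatives were DESeq2 1.42.0, limma 3.58.1 (voom with quality weights, or trend on log2 of TPM + 1, TPM + 0.1 and FPKM + 1), other filters and thresholds, 1 fit of all libraries, each library left out in turn and a replicate block. Named genes were the members, the 10 genes with the highest and 5 with the lowest r to their mean (skipping predicted genes, clones and pseudogenes), the 2 most abundant of each list, and cortical excitatory genes past the threshold; other list genes past the threshold were named after their values were seen. The values of some genes that this rule names are not reported here. No pair of replicates agreed within sampling noise (chi-square per degree of freedom 16.1 to 65.8). Of 45777 features, 45675 were placed by gene ID. The steps were tested on simulated data. Read depth limits the lowest levels, where a few reads decide a value.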

Additional observations from a re-analysis of the deposited data

How the results depend on the processing

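The count of members past the threshold was 0 in both generations and for their difference under each alternative run: DESeq2's test, its size factors, limma-voom with quality weights, limma-trend on TPM and FPKM, a mean CPM of at least 1 (which left Emx1 out in F2), no filter, an adjusted p under 0.1, 1 fit of all libraries and each library left out. Over all genes the number called did depend on the tool: DESeq2 called 11 genes in F1, 7 in F2 and 8 for the interaction, and edgeR 0, 0 and 1. The paired fit with the replicate number as a block also called 0 members in each comparison. With the block, 7 of the 9 genes in F1 had an unadjusted p under 0.05, as did 1846 of all 18499 genes against 774 without it. The median log2 fold change of the 9 was -1.60. F1 METH has no replicate 4, so the block takes F1 saline replicate 4, the library lowest in Slc17a7, out of this estimate. Leaving that library out without the block gave a median of -1.02. An unadjusted edgeR p under 0.05 was then reached by 0 of the 9 and by 1247 of 18203 genes. Deviations of same-numbered libraries correlated at r = -0.0075, 0.059 and 0.35 in F1, and at -0.071 to 0.037 in F2. The 0.35, between the F1 libraries numbered 3, lay above all differently numbered F1 pairs (-0.32 to 0.19). Those 2 libraries also had the highest Slc17a7 levels, 451.8 TPM in saline and 323.6 TPM in METH. Whether this enters the 0.35 was not tested. No label ties same-numbered libraries together, so the block was kept as an alternative only.

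The directions of Neurod6, Fezf2 and Lamp5 turned in F2. Neurod6, at -0.29 in the main fit, became 0.70 with voom and 0.18 on log2(TPM + 0.1). Fezf2 became 0.16, 0.26 and 0.067 on log2 of TPM + 1, TPM + 0.1 and FPKM + 1. Lamp5 became -0.0042 with no filter, -0.035 on log2(FPKM + 1) and -0.013 in 1 fit of all libraries. The cause was not tested. Leaving out 1 library at a time moved the F1 log2 fold change from -3.13 to 0.074 for Slc17a7, -3.27 to 0.12 for Tbr1, -3.01 to 0.67 for Neurod2, -2.78 to 0.44 for Neurod6, -3.73 to 0.34 for Emx1, -1.31 to 0.64 for Fezf2 and -1.14 to 0.092 for Cux2. In F2 the ranges were -0.34 to 1.47 for Slc17a7, -0.53 to 1.14 for Tbr1, -0.47 to 1.30 for Neurod2, -1.45 to 1.16 for Neurod6, -0.014 to 1.02 for Emx1, -0.14 to 0.038 for Fezf2, -0.25 to 0.13 for Cux2 and -0.042 to 0.049 for Lamp5. For the difference they were -0.073 to 3.32 for Tbr1, -0.62 to 3.06 for Neurod2 and -0.82 to 2.48 for Neurod6. They were -0.68 to 1.26 for Fezf2 and -0.19 to 1.04 for Cux2. Without a turn they were 0.055 to 3.25 for Slc17a7, 0.0041 to 4.07 for Emx1, 0.98 to 4.56 for Slc30a3 and 0.054 to 0.23 for Lamp5. Slc30a3 kept its sign in F1 (-4.11 to -0.52) and in F2 (0.12 to 1.56), and Lamp5 kept its sign in F1 (-0.24 to -0.064).

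The 27 correlated pairs became 23 in F1 alone (7 libraries) and 15 in F2 alone (8 libraries). The reason for the lower count in F2 was not tested. Without the 5 libraries above 100 TPM of Slc17a7, 0 pairs passed. That alternative was chosen after seeing the data and leaves 144 arrangements for the test. With 1 library left out, 21 to 28 pairs passed.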
